A study of Rattus norvegicus with 40 samples.

Results

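Hippocampus and anterior cortex of the rat were compared in animals that had not met a blast. The comparison covered 10 of the 40 libraries of the study: 5 of the hippocampus and 5 of the anterior cortex, all from sham-exposed rats (Rattus norvegicus) sampled 12 months after the sham procedure. They were chosen by their labels alone, as all libraries with the tissue hippocampus or anterior cortex and the treatment sham. The groups differ in the tissue and share the treatment and the time. A comparison near the end uses the 10 blast libraries of the same regions and time, and levels in the 10 sham libraries of amygdala and cerebellum are given for the leading genes. Strain, sex, age at exposure, any genotype and the number of animals behind a library were not given in the sources used here. The titles carry the numbers 11, 13, 14, 15 and 33 in both regions. Nothing says that a number is an animal, so p-values measure the spread between these samples, which may be technical. Of 23485 genes in the hippocampus table and 23366 in that of the anterior cortex, the 22115 present in both were joined by their Ensembl identifier.

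The hippocampus is an old cortex with a single layer of principal neurons. Its dentate granule cells project by mossy fibres to CA3 pyramidal cells, which in turn project to CA1, and it is known for its part in the forming of memories. The label anterior cortex names a part of the neocortex, in which glutamatergic neurons of different projection lie in separate layers. What else the dissected pieces held is not given. Genes known from the striatum and the olfactory bulb were also at higher levels in these libraries, as described below. Both regions come from the embryonic pallium and share broad classes of cells, namely glutamatergic neurons, interneurons, glia and vessels, though their types of glutamatergic neuron differ. They differ in the transcription factors, receptors, channels and guidance molecules that their principal neurons keep in adult life.

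Some libraries stood apart, and many of the results that rest on them, though not all, are given with and without them. The hippocampus libraries held 11589358 to 19156693 counts and those of the anterior cortex 11268097 to 14973206. Anterior cortex libraries 11, 13 and 15 held counts for 17510 to 17845 genes, fewer than the 18643 to 19540 of the other 7 libraries. Hippocampus library 14 and anterior cortex libraries 14 and 33 had the 3 lowest scores on the second principal component, with 17.3% of the variance, while the first, with 47.4%, separated the regions. Hippocampus library 14 was also high in ribosomal protein genes. Hippocampus library 11 was high in choroid plexus genes: Ttr, the thyroxine carrier that choroid plexus makes, stood at 3841 CPM there and at 8.12 to 174 in the other 4. Each region is a separate dissection with its own deposited table, so the region and any difference in handling cannot be told apart. Whether reads were counted by strand is unstated, and reads of overlapping genes cannot be separated.

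Of 14892 genes that passed a filter on low counts, 4323 (29.0%) differed between the regions at an adjusted p under 0.05 by edgeR's quasi-likelihood test, which is meant below by "called". In the hippocampus 2032 genes (13.6% of those tested) were higher and 2291 (15.4%) lower. These shares are the background for the counts of every list below. The lists were chosen with earlier results of these data known, so their counts describe the data and are not an independent test. The median absolute log2 difference of the called genes was 0.83, and the median over all genes tested was 0.0041. A difference beyond 1.5-fold passed edgeR's glmTreat test for 451 genes higher (3.03%) and 640 genes lower (4.3%) in the hippocampus. Every hippocampus library stood above every anterior cortex library for 1471 of the genes called higher, and below every one for 1541 of those called lower. Groups without overlap, given below for single genes, were thus usual among called genes. All 30 genes with the smallest p had them, and genes of small p are bound to be of this kind. Without anterior cortex libraries 11, 13 and 15 the comparison called 945 genes higher and 1089 lower, and without anterior cortex libraries 14 and 33 it called 3173 and 2785. Differences below are log2 of hippocampus over anterior cortex with their standard error (SE), levels are CPM (counts scaled to a common library size), and values per library follow the order of the numbers 11, 13, 14, 15 and 33. In whole tissue, fewer cells of a type and less RNA per cell cannot be told apart.

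**Figure D1:**
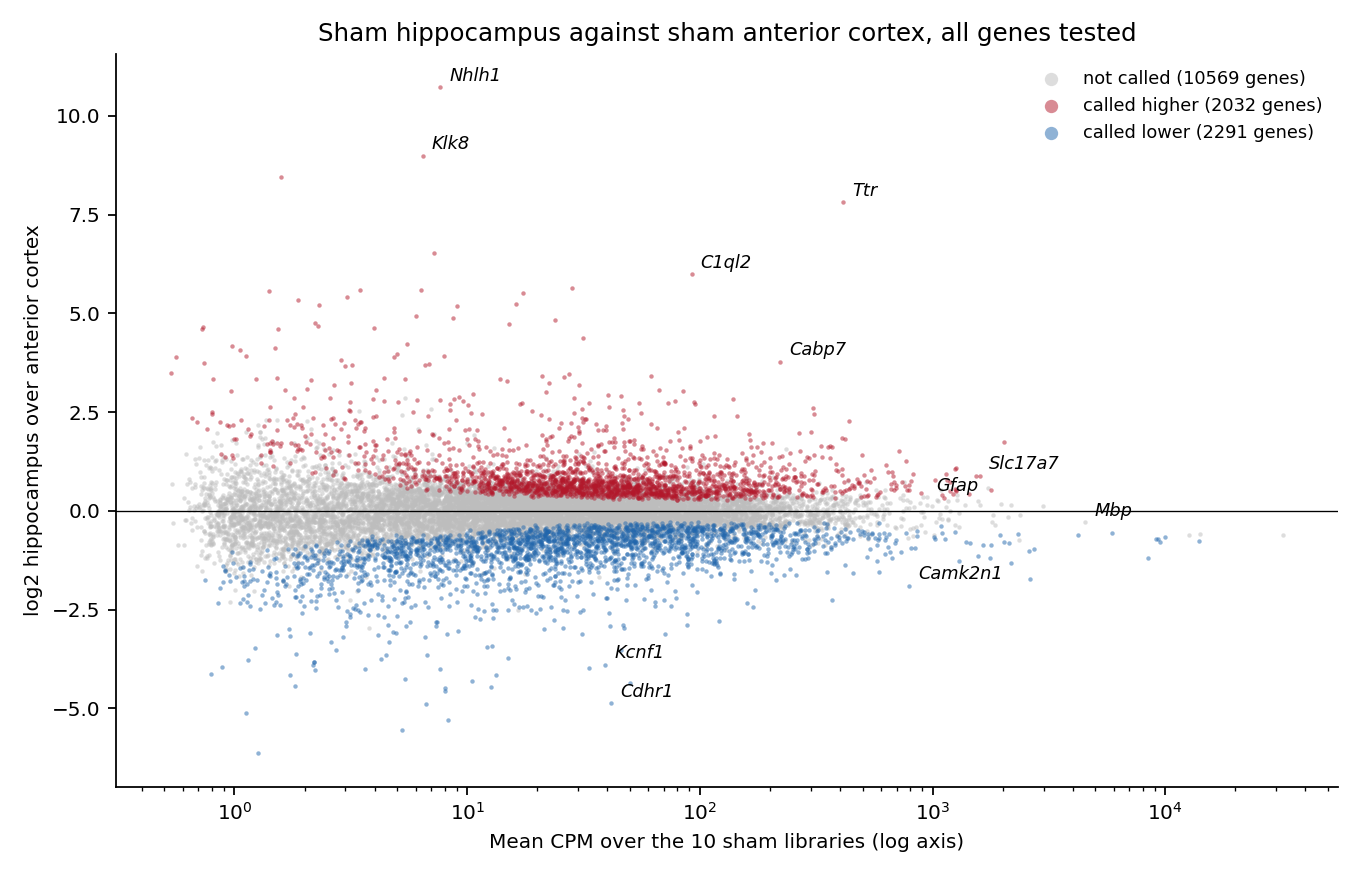
Each point is 1 of the 14892 genes tested, by its mean CPM over the 10 sham libraries (log axis) and its log2 difference between hippocampus and anterior cortex; red points were called higher in the hippocampus (2032), blue points lower (2291) and grey points not called. Nhlh1 and Klk8 are drawn at fitted values that depend on the handling of counts of 0 and 1.

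Among the genes with the smallest p on the higher side were a calcium sensor, a Wnt ligand, a peptide receptor and a cytokine receptor kinase. Cabp7, a calmodulin-like calcium-binding protein, is encoded at ENSRNOG00000057703, chr14:84968130-84978255, minus strand. It stood at 346, 419, 428, 408 and 468 CPM in the hippocampus and 23.5, 31, 32.1, 25.8 and 38.9 CPM in the anterior cortex. The Cabp7 log2 difference was 3.77 ± 0.16 (adjusted p = 6.2e-08, edgeR). Every hippocampus library stood far above every library of the anterior cortex. Kctd4 (ENSRNOG00000050996, chr15:58016238-58019442, plus strand), of the BTB-domain protein family named for potassium channel tetramerisation, stood at 122, 118, 121, 102 and 134 CPM in the hippocampus and 12.1, 15.6, 16.8, 12.6 and 14.8 CPM in the anterior cortex. The Kctd4 log2 difference was 3.05 ± 0.13 (adjusted p = 6.2e-08). Mas1 (ENSRNOG00000014971, chr1:48077033-48108216, plus strand), the receptor of a shortened angiotensin peptide, stood at 57.3, 52.3, 52.2, 54.7 and 55 CPM in the hippocampus and 4.5, 6.32, 7.71, 5.46 and 5.54 CPM in the anterior cortex. The Mas1 log2 difference was 3.19 ± 0.15 (adjusted p = 1.0e-07). Kit, the receptor tyrosine kinase for stem cell factor, ranged over 143 to 189.9 CPM in the hippocampus and 20.1 to 27.8 in the anterior cortex (log2 difference 2.75 ± 0.13, adjusted p = 1.0e-07). Wnt4 (ENSRNOG00000013166, chr5:155649217-155672579, plus strand), a secreted Wnt ligand, stood at 101, 79.5, 89.6, 103 and 104 CPM in the hippocampus and 13.9, 13, 16.8, 16.9 and 11.3 CPM in the anterior cortex. The Wnt4 log2 difference was 2.73 ± 0.15 (adjusted p = 2.9e-07). In all 5 genes the groups were far apart. Positions here and below are those of the deposited tables, of an unstated build. The next by p were Lrrc10b, a leucine-rich repeat protein (3.03 ± 0.16), Bhlhe22, a basic helix-loop-helix transcription factor (2.84 ± 0.17), Tnfrsf25, a death-domain receptor of the TNF family (2.86 ± 0.18), and Lpl, lipoprotein lipase (2.63 ± 0.18). They also include Il16, Cpne4, Gabra5 and Kcng2, which are taken up with their groups, and none of these 8 had overlapping groups.

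**Figure D2:**
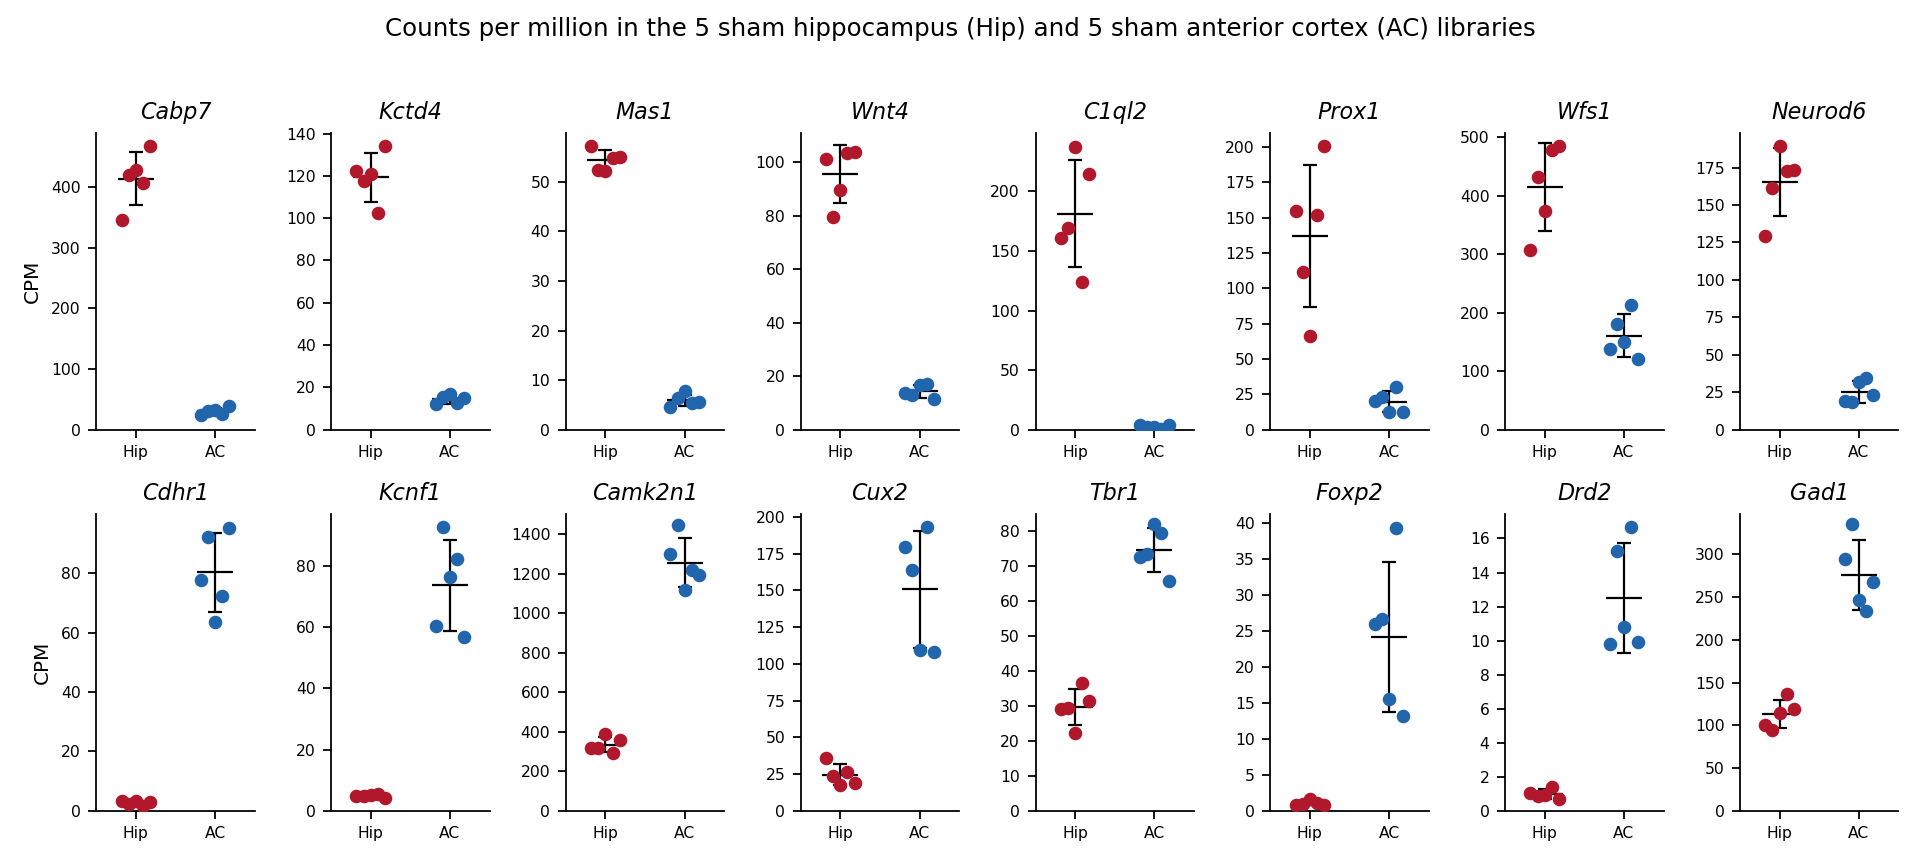
CPM (linear axes from 0) of 16 genes in each of the 5 sham hippocampus (red) and 5 sham anterior cortex (blue) libraries, with the mean and SD in black. The upper 8 genes were higher in every hippocampus library and the lower 8 in every anterior cortex library.

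Among those on the lower side were a cadherin, a silent potassium channel subunit and regulators of CaM kinase. Cdhr1 (ENSRNOG00000013330, chr16:14328160-14348046, minus strand), a cadherin known from photoreceptors and from the projection neurons of the olfactory bulb, was at 3.15, 2.36, 3.46, 1.7 and 2.91 CPM in the hippocampus and 77.8, 92.2, 63.5, 72.3 and 95.3 CPM in the anterior cortex. The Cdhr1 log2 difference was -4.88 ± 0.21 (adjusted p = 6.2e-08, edgeR). Kcnf1 (ENSRNOG00000024310, chr6:42471066-42473738, minus strand), a silent potassium channel subunit, was at 4.84, 5.01, 5.2, 5.52 and 4.09 CPM in the hippocampus and 60.4, 92.6, 76.2, 82.1 and 56.8 CPM in the anterior cortex. The Kcnf1 log2 difference was -3.90 ± 0.17 (adjusted p = 6.2e-08). For both, no hippocampus library came near the lowest of the anterior cortex. Camk2n1 (ENSRNOG00000016322, chr5:156876706-156878486, plus strand), an inhibitor of CaM kinase II, was at 320.2, 317, 387, 294 and 357 CPM in the hippocampus and 1301, 1446, 1118, 1220.4 and 1192 CPM in the anterior cortex. The Camk2n1 log2 difference was -1.91 ± 0.12 (adjusted p = 1.2e-06). Camk2d, the delta chain of that kinase, was at 22 to 34.7 CPM in the hippocampus and 112 to 154 in the anterior cortex (-2.20 ± 0.15). Stac2, an adaptor of L-type calcium channels, ranged over 14.9 to 27.6 CPM in the hippocampus and 128 to 174 in the anterior cortex (-2.90 ± 0.18). Lgr5, a receptor for R-spondins, ranged over 0.565 to 1.34 CPM in the hippocampus and 11.3 to 19.2 in the anterior cortex (-4.01 ± 0.27). The groups of these 6 genes did not overlap. The leading genes further include Pitpnm3, of the membrane-associated phosphatidylinositol transfer proteins (-2.34 ± 0.13), Garnl3, with a Rap GTPase-activating domain (-2.30 ± 0.12), the orphan receptor Gpr153 (-2.99 ± 0.18) and Epop, a partner of Polycomb complexes (-2.60 ± 0.17), and with their groups Gng4, Meis2, Stard8 and Gfra2.

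The 2 other regions of the study, amygdala and cerebellum, give these levels a wider frame. The column name of 1 amygdala library matches no sample title. It was taken as sham because its number is on sham titles of the other regions and on no blast title. Scaled together over the 20 sham libraries of 4 regions, 12 of the 14 leading higher genes with a level in all 4 tables had their highest mean in the hippocampus. The 2 others, Kit and Il16, were highest in the cerebellum. Of the 15 leading lower genes, 10 were highest in the anterior cortex, 4 in the cerebellum and 1 in the amygdala, and 7 had their lowest mean of the 4 regions in the hippocampus. The order of hippocampus and anterior cortex was set by the choice of these genes, made in the same libraries. The same counts over all genes called were not made.

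A few genes were close to absent on one side. Nhlh1, a helix-loop-helix factor of developing neurons, was at 14.5, 12.9, 15.8, 14 and 19.4 CPM in the hippocampus and had no count in any anterior cortex library, which makes it at least 308-fold higher against a floor of 3 counts over the group. Klk8, the secreted serine protease neuropsin, was at 8.4, 10.5, 19.97, 9.77 and 15.8 CPM in the hippocampus and had 1 count in the anterior cortex against 1018, a ratio of 812 with a 95% counting interval from 146 to 32110.0 that covers counting error only. Olr1462, of the large olfactory receptor family, ranged over 9.2 to 20.4 CPM in the hippocampus and 0 to 0.413 in the anterior cortex (log2 difference 6.53 ± 0.59, adjusted p = 9.2e-06). On the other side, Frmd7, a FERM-domain protein of neurons, ranged over 0.0509 to 0.461 CPM in the hippocampus and 3.33 to 17 in the anterior cortex (log2 difference -5.56 ± 0.56, adjusted p = 2.2e-05). Sema3a, a secreted guidance cue, ranged over 0.393 to 1.2 CPM in the hippocampus and 8.34 to 21.7 in the anterior cortex (log2 difference -4.56 ± 0.38, adjusted p = 5.8e-06). Cyp11b3, a steroid 11-hydroxylase of a family of close copies, ranged over 0 to 1.02 CPM in the hippocampus and 12.1 to 19.9 in the anterior cortex (log2 difference -5.30 ± 0.56, adjusted p = 3.4e-05). AABR07040095.1, a gene known by its contig only, ranged over 0.255 to 0.633 CPM in the hippocampus and 7.48 to 28.5 in the anterior cortex (-4.89 ± 0.48). Near-identical copies can share reads, so the values of Olr1462 and Cyp11b3 are uncertain. Among genes listed in 1 table only, Wnt3a, a ligand made at the hippocampal organizer of the embryo, had 22 to 59 counts in each hippocampus library, and Klk12, another kallikrein, 11 to 26. They are outside the joined tables and no fold is given.

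Most genes that mark the parts of the hippocampus were higher there, those of dentate granule cells with the highest median of the 4 field lists. Of 12 tested members of the dentate gyrus list, 8 were called higher and 0 lower (median log2 difference 1.73, against 13.6% called higher and a median of 0.0041 over all genes). C1ql2, a secreted C1q-like protein of mossy fibre synapses, stood at 161, 169.6, 237, 124 and 215 CPM in the hippocampus and 4.22, 2.08, 2.59, 1.02 and 4.38 CPM in the anterior cortex. The C1ql2 log2 difference was 5.99 ± 0.34 (adjusted p = 5.4e-07, edgeR). Prox1, the homeobox factor that maintains granule cell identity, stood at 155, 112, 66.6, 152 and 201 CPM in the hippocampus and 20.2, 23.3, 12.6, 30.5 and 12.6 CPM in the anterior cortex. The Prox1 log2 difference was 2.79 ± 0.32 (adjusted p = 6.5e-05). Both were high in every hippocampus library, with library 15 the lowest for C1ql2 and library 14 for Prox1. Pdyn, the precursor of dynorphin, ranged over 69.6 to 91.5 CPM in the hippocampus and 9.16 to 19 in the anterior cortex (log2 difference 2.56 ± 0.20, adjusted p = 2.9e-06). Il16, an interleukin with a neuronal form, ranged over 53 to 105 against 9.64 to 13 CPM (2.92 ± 0.19) and Plk5, a polo-like kinase of neurons, over 77.8 to 122 against 16.9 to 38.3 CPM (2.09 ± 0.21). Calb1, the calcium buffer calbindin, ranged over 80.2 to 124 against 33.3 to 49 CPM (log2 difference 1.21 ± 0.15, adjusted p = 1.3e-04). None of these 6 had overlapping groups. The 4 members not called had log2 differences of 0.26 to 0.75. The median was 1.72 without anterior cortex libraries 11, 13 and 15, with 8 called higher.

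The pyramidal fields followed with smaller differences. Of 9 CA1 genes, 6 were called higher and 1 lower (median log2 difference 1.31), of 9 CA3 genes 7 and 0 (median log2 difference 1.19), and of 7 CA2 genes 3 and 1 (median log2 difference 0.51). Without anterior cortex libraries 11, 13 and 15 the counts were 3 and 0 for CA1 (median 1.04) and 5 and 1 for CA3 (median 1.04). For CA2 they were 3 and 1 (median 0.44). Wfs1, the endoplasmic reticulum protein wolframin of CA1 neurons, stood at 307, 431, 374, 478 and 484 CPM in the hippocampus and 138, 181, 149.8, 214 and 122 CPM in the anterior cortex. The Wfs1 log2 difference was 1.37 ± 0.18 (adjusted p = 1.6e-04). Pou3f1, a POU factor that the tables class as a pseudogene, ranged over 48.2 to 79.6 against 13.3 to 21.3 CPM (log2 difference 1.85 ± 0.17, adjusted p = 1.2e-05). Fibcd1, a transmembrane receptor for acetylated sugars, had a wide spread, 0.153 to 14.1 against 0 to 1.88 CPM (log2 difference 3.38 ± 1.15, adjusted p = 0.043), with overlapping groups. Its call was lost without any 1 of hippocampus libraries 11, 15 and 33 or anterior cortex libraries 11, 13, 15 and 33 (adjusted p from 0.066 to 0.088), and with limma voom (2.65, adjusted p = 0.38). Of the CA2 genes, Ntf3, the neurotrophin NT-3, was higher at 16.1, 15.6, 14.3, 11.2 and 17.5 CPM in the hippocampus and 0.479, 0.748, 1.23, 0.925 and 1.49 CPM in the anterior cortex. The Ntf3 log2 difference was 3.91 ± 0.28 (adjusted p = 1.8e-06). Rgs14, a regulator of G-protein signalling, was higher at 103 to 163 against 36.6 to 65.9 CPM (log2 difference 1.58 ± 0.19, adjusted p = 1.1e-04). Cacng5, also on the CA2 list, was lower (-1.81 ± 0.23), as was Mpped1 of the CA1 list (-0.43 ± 0.14), whose call was lost without any 1 of hippocampus libraries 11, 13 and 33 or anterior cortex libraries 11, 13, 15 and 33 (adjusted p from 0.051 to 0.082). In CA3, Cpne4, a calcium-dependent membrane-binding copine, stood at 260.0, 262, 215, 279 and 267 CPM in the hippocampus and 69.1, 78.1, 55.5, 60.2 and 71.5 CPM in the anterior cortex. The Cpne4 log2 difference was 1.94 ± 0.13 (adjusted p = 1.2e-06). Grik4, the kainate receptor subunit GluK4, was at 110.2, 108, 88.1, 110.3 and 116 CPM in the hippocampus and 36.3, 36.4, 35, 41.4 and 33.3 CPM in the anterior cortex. The Grik4 log2 difference was 1.55 ± 0.11 (adjusted p = 1.8e-06). Bok, a BCL-2 family protein (1.77 ± 0.19), and Chgb, the granule protein chromogranin B (1.19 ± 0.13), were also higher. Zbtb20, a zinc finger repressor that shapes CA1 in development, was not called. It stood at 43, 51, 13.7, 40.3 and 40.3 CPM in the hippocampus and 81.9, 38.9, 20.2, 98.1 and 33 CPM in the anterior cortex (log2 difference -0.53 ± 0.42, adjusted p = 0.36), and its groups overlapped. Its highest values were those of anterior cortex libraries 15 and 11, and its lowest that of hippocampus library 14. Its log2 difference was 0.52 (adjusted p = 0.48) for anterior cortex libraries 11, 13 and 15 left out. With hippocampus library 14 and anterior cortex libraries 14 and 33 left out instead, it was called lower (-0.73, adjusted p = 0.039).

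Markers of the neocortical layers were lower in the hippocampus. Of 12 upper-layer genes tested, 0 were called higher and 7 lower (median log2 difference -1.05, against 15.4% called lower over all genes). Cux2, a homeobox factor of the upper layers, stood at 36.2, 24, 17.8, 26.5 and 18.7 CPM in the hippocampus and 179, 164, 109, 193 and 108 CPM in the anterior cortex. The Cux2 log2 difference was -2.62 ± 0.24 (adjusted p = 9.6e-06, edgeR). Rorb, an orphan receptor of layer 4, was at 7.59, 9.84, 5.55, 8.35 and 6.45 CPM in the hippocampus and 47.4, 28.3, 20.1, 56.9 and 20.6 CPM in the anterior cortex. The Rorb log2 difference was -2.19 ± 0.31 (adjusted p = 2.9e-04). Anterior cortex libraries 14 and 33 held the 2 lowest cortical values of Cux2, still far above the hippocampus. Cux1 (-2.10 ± 0.30), Pou3f2 (-2.03 ± 0.20) and Stard8, a GTPase-activating protein (-2.24 ± 0.15), were lower too. Of 20 deep-layer genes, 3 were called higher and 11 lower (median log2 difference -0.89). Foxp2, a forkhead factor of layer 6, stood at 0.807, 0.979, 1.58, 1.13 and 0.865 CPM in the hippocampus and 26.1, 26.7, 15.6, 39.4 and 13.2 CPM in the anterior cortex. The Foxp2 log2 difference was -4.46 ± 0.34 (adjusted p = 2.6e-06). Syt6, a synaptotagmin, was at 8.46 to 13.4 against 33.1 to 44.2 CPM (log2 difference -1.93 ± 0.16, adjusted p = 5.0e-06). The neurotensin receptor Ntsr1 (-2.59 ± 0.49) and Rprm (-2.39 ± 0.38) were lower. The members called higher were Crym, also on the CA1 list (1.31 ± 0.24), Nr4a2 (0.71 ± 0.14) and Bcl11b, also a factor of dentate granule cells (0.92 ± 0.22). The calls of Ntsr1 (adjusted p = 0.065) and Crym (adjusted p = 0.055) were not kept without anterior cortex libraries 11, 13 and 15. Fezf2, a factor of subcerebral projection neurons, was not called (0.35 ± 0.26, 15 to 25.9 against 8.43 to 25.4 CPM).

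Transcription factors of the pallium split. Of 36 tested, 11 were called higher and 16 lower (median log2 difference -0.46), in all 27 of 36 against 29.0% over all genes. The NeuroD family of helix-loop-helix factors was higher. Neurod6 stood at 129.6, 161, 189.7, 173 and 174 CPM in the hippocampus and 19.2, 18.4, 31.5, 34.3 and 23.2 CPM in the anterior cortex. The Neurod6 log2 difference was 2.71 ± 0.19 (adjusted p = 1.8e-06). Neurod1 stood at 28.3, 32.6, 25, 29.5 and 33.8 CPM in the hippocampus and 3.07, 3.32, 5.12, 5.27 and 5.62 CPM in the anterior cortex. The Neurod1 log2 difference was 2.73 ± 0.20 (adjusted p = 1.8e-06). Neurod2, which the tables class as a pseudogene, stood at 113 to 180.1 against 38.4 to 52.5 CPM (log2 difference 1.77 ± 0.14, adjusted p = 4.4e-06). All 3 had groups that did not overlap. Tbr1, a T-box factor of layer 6, was lower at 29.2, 29.5, 22.2, 36.5 and 31.5 CPM in the hippocampus and 72.6, 73.5, 81.9, 79.4 and 65.6 CPM in the anterior cortex. The Tbr1 log2 difference was -1.33 ± 0.14 (adjusted p = 2.8e-05). Meis2, a TALE homeodomain factor (16.5 to 30.9 against 113 to 139 CPM, -2.41 ± 0.16), and Mef2c, an activity-linked MADS factor (111 to 146 against 344 to 1099 CPM, -2.27 ± 0.26), were also lower. Of the early pallial factors, Emx2 (0.87 ± 0.17) and Lhx2 (0.42 ± 0.13, adjusted p = 0.035) were higher. The call of Lhx2 was lost without any 1 of hippocampus libraries 11, 13, 14 and 33 or anterior cortex libraries 11, 13 and 15 (adjusted p from 0.053 to 0.076). A promoter from each direction shows where the motifs counted below lie, as the 200 bases before the RefSeq start (build GRCr8), 5′ to 3′, of Neurod6 and of Kcnf1. Capitals mark the motifs found.
Neurod6, chr4:86180156-86180355, minus strand: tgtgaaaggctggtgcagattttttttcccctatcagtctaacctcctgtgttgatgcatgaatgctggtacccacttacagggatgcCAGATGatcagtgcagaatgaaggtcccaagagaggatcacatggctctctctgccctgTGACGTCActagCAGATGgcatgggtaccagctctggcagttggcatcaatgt
Kcnf1, chr6:45693707-45693906, minus strand: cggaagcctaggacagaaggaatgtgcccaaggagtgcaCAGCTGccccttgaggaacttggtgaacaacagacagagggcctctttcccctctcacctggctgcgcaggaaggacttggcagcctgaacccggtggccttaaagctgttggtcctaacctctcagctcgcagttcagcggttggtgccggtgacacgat
The Neurod6 sequence holds the cAMP response element TGACGTCA 53 bases before the start and the E-box CAGATG 112 and 41 bases before it. The Kcnf1 sequence holds the E-box CAGCTG 161 bases before the start. A match is a description of the letters and not a site.

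Motif shares were counted over the promoters of genes in each direction. Each motif was searched on both strands in the 300 bases from 250 before to 50 after each RefSeq start. Promoters were matched by symbol for 308 of the 451 genes higher beyond 1.5-fold (353 promoters), 461 of the 640 lower (522) and 10601 of the 14826 names of tested genes (11976). The E-box CAGATG was in 16.4% of the promoters of higher genes, 12.3% of those of lower genes, 11.3% of those of all tested genes and 16.6% of the 33469 promoters of the table. The E-box CAGCTG was, in the same order, in 19.0%, 19.2%, 16.2% and 15.1%. TGACGTCA was in 2.55%, 2.49%, 2.94% and 1.83%, and its shorter form TGACG, which the whole element contains, in 21.0%, 18.2%, 29.5% and 21.2%. The TATA box TATAAA was in 8.5%, 8.62%, 7.03% and 14.2%, and the T-box site TCACAC in 13.6%, 11.1%, 11.2% and 13.7%.

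Genes of inhibitory neurons were lower in the hippocampus. Of 27 interneuron genes tested, 1 was called higher and 19 lower (median log2 difference -1.04). Gad1, which makes GABA from glutamate, stood at 100.4, 94.9, 114, 136 and 119 CPM in the hippocampus and 295, 335, 247, 233 and 268 CPM in the anterior cortex (log2 difference -1.29 ± 0.14, adjusted p = 3.7e-05, edgeR), with every hippocampus library below every anterior cortex library. Gad2, the other such enzyme, ranged over 88 to 152 against 177 to 275 CPM (log2 difference -1.10 ± 0.18, adjusted p = 9.2e-04). Tac1, the substance P precursor (-2.81 ± 0.29), and the homeobox and zinc finger factors Dlx2 (-2.26 ± 0.29), Dlx5 (-1.997 ± 0.29) and Sp8 (-3.32 ± 0.40) were also lower. Tac1 is shared with the striatum list and Sp8 with that of the olfactory bulb, whose genes were on the same side and are given next, and their part in the interneuron result was not tested. Tac3, the neurokinin B precursor, was the member called higher (1.41 ± 0.41), and was not without hippocampus library 14 (1.23, adjusted p = 0.053) or anterior cortex library 11 (1.40, adjusted p = 0.051). Markers of the large interneuron classes were not called. Pvalb, parvalbumin, ranged over 17.3 to 43.6 against 16.9 to 31.7 CPM (0.15 ± 0.27), Sst, somatostatin, over 16.6 to 52.1 against 9.62 to 72.3 CPM (0.03 ± 0.53), and Vip over 4.72 to 10.9 against 5.37 to 21 CPM (-0.80 ± 0.36). Without hippocampus library 14, Vip was called lower (-1.05, adjusted p = 0.049), likewise without anterior cortex library 15 (-0.98, adjusted p = 0.044) or without anterior cortex libraries 11, 13 and 15 (-1.37, adjusted p = 0.030). It was also called lower with the gene length trend removed (-0.90, adjusted p = 0.045) and in the fit of 4 regions (-0.80, adjusted p = 0.043). Sst was called higher without anterior cortex libraries 14 and 33 (1.35, adjusted p = 0.012), and its log2 difference was -0.88 without anterior cortex libraries 11, 13 and 15 (adjusted p = 0.20). Of 11 genes of excitatory neurons, 5 were called higher and 3 lower (median log2 difference 0.79). Slc17a7, a vesicular glutamate transporter, was higher at 1714 to 2323 against 878 to 1407 CPM (log2 difference 0.88 ± 0.14, adjusted p = 8.1e-04). Its relative Slc17a6 was lower at 3.15 to 6.93 against 10.2 to 17.4 CPM (log2 difference -1.39 ± 0.24, adjusted p = 0.0011).

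Genes known from striatal projection neurons were also at higher levels in the anterior cortex libraries. Of 16 tested, 1 was called higher and 13 lower (median log2 difference -1.48). Drd2, the dopamine receptor D2, stood at 1.05, 0.864, 0.917, 1.42 and 0.708 CPM in the hippocampus and 9.77, 15.3, 10.8, 16.7 and 9.91 CPM in the anterior cortex. The Drd2 log2 difference was -3.65 ± 0.27 (adjusted p = 1.9e-06, edgeR). Drd1, the receptor D1, was at 3.47, 3.57, 5.25, 3.11 and 5.58 CPM in the hippocampus and 17.1, 16.3, 14.2, 24.8 and 6.53 CPM in the anterior cortex. The Drd1 log2 difference was -1.90 ± 0.32 (adjusted p = 9.4e-04). Adora2a, an adenosine receptor (-2.52 ± 0.27), Penk, the enkephalin precursor (-1.31 ± 0.24), and Ppp1r1b, the phosphatase inhibitor DARPP-32 (-0.79 ± 0.15), were lower in the hippocampus. Isl1, a LIM homeobox factor, had 1.72 to 3.33 CPM in the anterior cortex and at most 0.0808 in the hippocampus. The striatum genes summed to 274 to 324 CPM in the hippocampus and 554 to 746 in the anterior cortex.

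Genes known from the olfactory bulb showed the same side, in a list added later than the others, after the present results had been seen. Of 15 tested, 0 were called higher and 13 lower (median log2 difference -2.02), and they summed to 219 to 492 CPM in the hippocampus and 667 to 1333 in the anterior cortex. Besides Cdhr1, Gng4, a G-protein gamma subunit, stood at 11.6, 13.9, 18.7, 14.7 and 14 CPM in the hippocampus and 135, 164, 107, 81.5 and 146 CPM in the anterior cortex. The Gng4 log2 difference was -3.12 ± 0.20 (adjusted p = 1.3e-06). Doc2g, a protein with C2 domains, was at 2.76 to 5.65 against 9.81 to 22.9 CPM (log2 difference -2.02 ± 0.26, adjusted p = 1.5e-04). Eomes, a T-box factor of bulb projection neurons, ranged over 0 to 0.55 against 2.31 to 5.31 CPM (log2 difference -4.44 ± 0.65, adjusted p = 4.1e-04). Th, the first enzyme of dopamine synthesis, ranged over 0.55 to 1.63 against 1.85 to 14.4 CPM (log2 difference -2.57 ± 0.56, adjusted p = 0.0053), highest in anterior cortex libraries 14 and 33. Tbx21, another factor of those neurons, had 6 counts in the hippocampus and 146 in the anterior cortex and did not pass the filter. The part of striatal or olfactory tissue in the differences between the regions was not tested. Of 7 thalamus genes, 2 were called higher and 5 lower (median log2 difference -1.18), the first led by Lhx9, a LIM homeobox factor, at 6.46, 6.33, 6.06, 7.5 and 7.55 CPM in the hippocampus and 0, 0.0831, 0.194, 0.37 and 0 CPM in the anterior cortex. The Lhx9 log2 difference was 5.60 ± 0.53 (adjusted p = 1.3e-05). Of 5 cerebellum genes tested, 0 were called higher and 4 lower (median log2 difference -1.22), among them Car8 (2.75 to 4.84 against 20.2 to 27.2 CPM, -2.52 ± 0.18). Of its defining granule and Purkinje genes, Pcp2 (9 and 5 counts in all), Cbln3 (26 and 19) and Gabra6 (10 and 34) did not pass the filter.

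Glial genes that were called were lower in the hippocampus. Of 19 astrocyte genes, 0 were called higher and 9 lower (median log2 difference -0.48). Glul, glutamine synthetase, stood at 882, 957, 1003, 1056 and 979 CPM in the hippocampus and 2504, 2213, 1707, 1879.9 and 2446 CPM in the anterior cortex. The Glul log2 difference was -1.14 ± 0.13 (adjusted p = 7.5e-05, edgeR). Itih3, an inter-alpha-trypsin inhibitor chain, was at 179 to 308 against 585 to 848 CPM (log2 difference -1.58 ± 0.17, adjusted p = 3.7e-05). Gfap, the astrocyte filament, was not called at 872, 1182, 1278, 1039.8 and 907 CPM in the hippocampus and 835, 982, 822, 800.0 and 731 CPM in the anterior cortex. The Gfap log2 difference was 0.34 ± 0.14 (adjusted p = 0.08). Gfap was called higher with the trend of differences on gene length removed (0.46, adjusted p = 0.026) and in the fit of the 20 sham libraries of 4 regions (0.34, adjusted p = 0.033). The glutamate transporter Slc1a2 was lower (132 to 365 against 392 to 1392 CPM, log2 difference -1.54 ± 0.35, adjusted p = 0.0065; -0.75 with adjusted p = 0.20 without anterior cortex libraries 11, 13 and 15), as was the water channel Aqp4 (403 to 498 against 583 to 844 CPM, -0.68 ± 0.12). Of 11 genes of oligodendrocyte precursors, 0 were called higher and 7 lower (median log2 difference -0.74), led by Pdgfra, the receptor for platelet-derived growth factor (62 to 81.1 against 98 to 150.0 CPM, log2 difference -0.92 ± 0.13, adjusted p = 4.0e-04). Of 18 genes of myelinating oligodendrocytes, 0 were called higher and 2 lower (median log2 difference -0.21), 11.1% called against 29.0% over all genes. The 2 were Ermn (-0.80 ± 0.24) and Mobp (-0.60 ± 0.20), while Mbp, myelin basic protein, stood at 2579.6 to 5671 against 2846 to 7214 CPM (-0.29 ± 0.27) and was not called. Hippocampus library 33 had the lowest mean level of the oligodendrocyte genes. The Ermn call was lost without hippocampus library 11 or anterior cortex library 11 or 13 (adjusted p from 0.051 to 0.074), and the Mobp call without hippocampus library 11, 14 or 33 or anterior cortex library 11, 13 or 33 (adjusted p from 0.077 to 0.11).

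Of 19 microglia genes, 0 were called higher and 6 lower (median log2 difference -0.58, -0.11 without anterior cortex libraries 14 and 33). That is 31.6% called in either direction, near the 29.0% over all genes. P2ry13 (-1.31 ± 0.18) and Cx3cr1, the fractalkine receptor (13.3 to 21.9 against 28.3 to 55.3 CPM, log2 difference -1.09 ± 0.19, adjusted p = 0.0013), were in front. Endothelial genes were lower in 8 of 12 (median log2 difference -0.999), none higher. Slco1a4, an organic anion transporter of the blood-brain barrier, stood at 48 to 66.8 against 100.3 to 152 CPM (log2 difference -1.14 ± 0.15, adjusted p = 1.5e-04). Tek, the angiopoietin receptor, stood at 17.4 to 26.1 against 37.2 to 69.5 CPM (log2 difference -1.30 ± 0.18, adjusted p = 2.2e-04). Cdh5, vascular cadherin, stood at 9.17 to 14.7 against 22.6 to 30.9 CPM (log2 difference -1.15 ± 0.17, adjusted p = 3.6e-04). Genes of mural cells were lower in 8 of 10 (median log2 difference -0.94), with the pericyte channel subunit Abcc9 (9.2 to 15.1 against 31.5 to 48.5 CPM, log2 difference -1.56 ± 0.19, adjusted p = 9.3e-05). Genes of meningeal fibroblasts were lower in 8 of 15 and higher in 1 (median log2 difference -0.95, and -1.42 without hippocampus library 11), the collagen Col3a1 at 2.45 to 8.88 against 16.4 to 22.3 CPM (log2 difference -1.91 ± 0.32, adjusted p = 9.9e-04). Of 3 blood genes, 0 were higher and 2 lower, Alas2 (-1.42 ± 0.39) and an alpha-globin gene with a copy under the same symbol, and neither was called without anterior cortex libraries 11, 13 and 15.

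Choroid plexus genes were higher in the hippocampus, above all in hippocampus library 11. Of 11 tested, 8 were called higher (median log2 difference 4.73). Ttr stood at 3841, 8.12, 16.5, 174 and 62.4 CPM in the hippocampus and 0.958, 0, 1.04, 0 and 16.2 CPM in the anterior cortex (log2 difference 7.81 ± 1.98, adjusted p = 0.012, edgeR), and the groups overlapped. Summed, the list reached 6338 CPM in hippocampus library 11, 115 to 441 CPM in the other 4 and 118 to 166 CPM in the anterior cortex. Without anterior cortex libraries 11, 13 and 15 none was called, and the log2 difference of Ttr was 6.64 (adjusted p = 0.19). By limma voom on all 10 libraries Ttr was not called (7.36, adjusted p = 0.22). Without hippocampus library 11 the median was 1.16 and 2 genes were called. Of 9 genes of ependyma, the ciliated lining of the ventricles, 5 were higher and 0 lower (median log2 difference 2.01), among them Ccdc153 at 4.52, 7.31, 6.06, 6.23 and 4.72 CPM in the hippocampus and 2.11, 0.997, 0.648, 1.39 and 2.07 CPM in the anterior cortex. The Ccdc153 log2 difference was 2.01 ± 0.34 (adjusted p = 9.7e-04). Tmem212 was at 2.36 to 5.17 against 0 to 0.991 CPM (log2 difference 3.09 ± 0.59, adjusted p = 0.0022). Without hippocampus library 11 their median was 1.88, and 4 were called. Tmem212 was not called without anterior cortex libraries 11, 13 and 15 (2.98, adjusted p = 0.062).

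**Figure D3:**
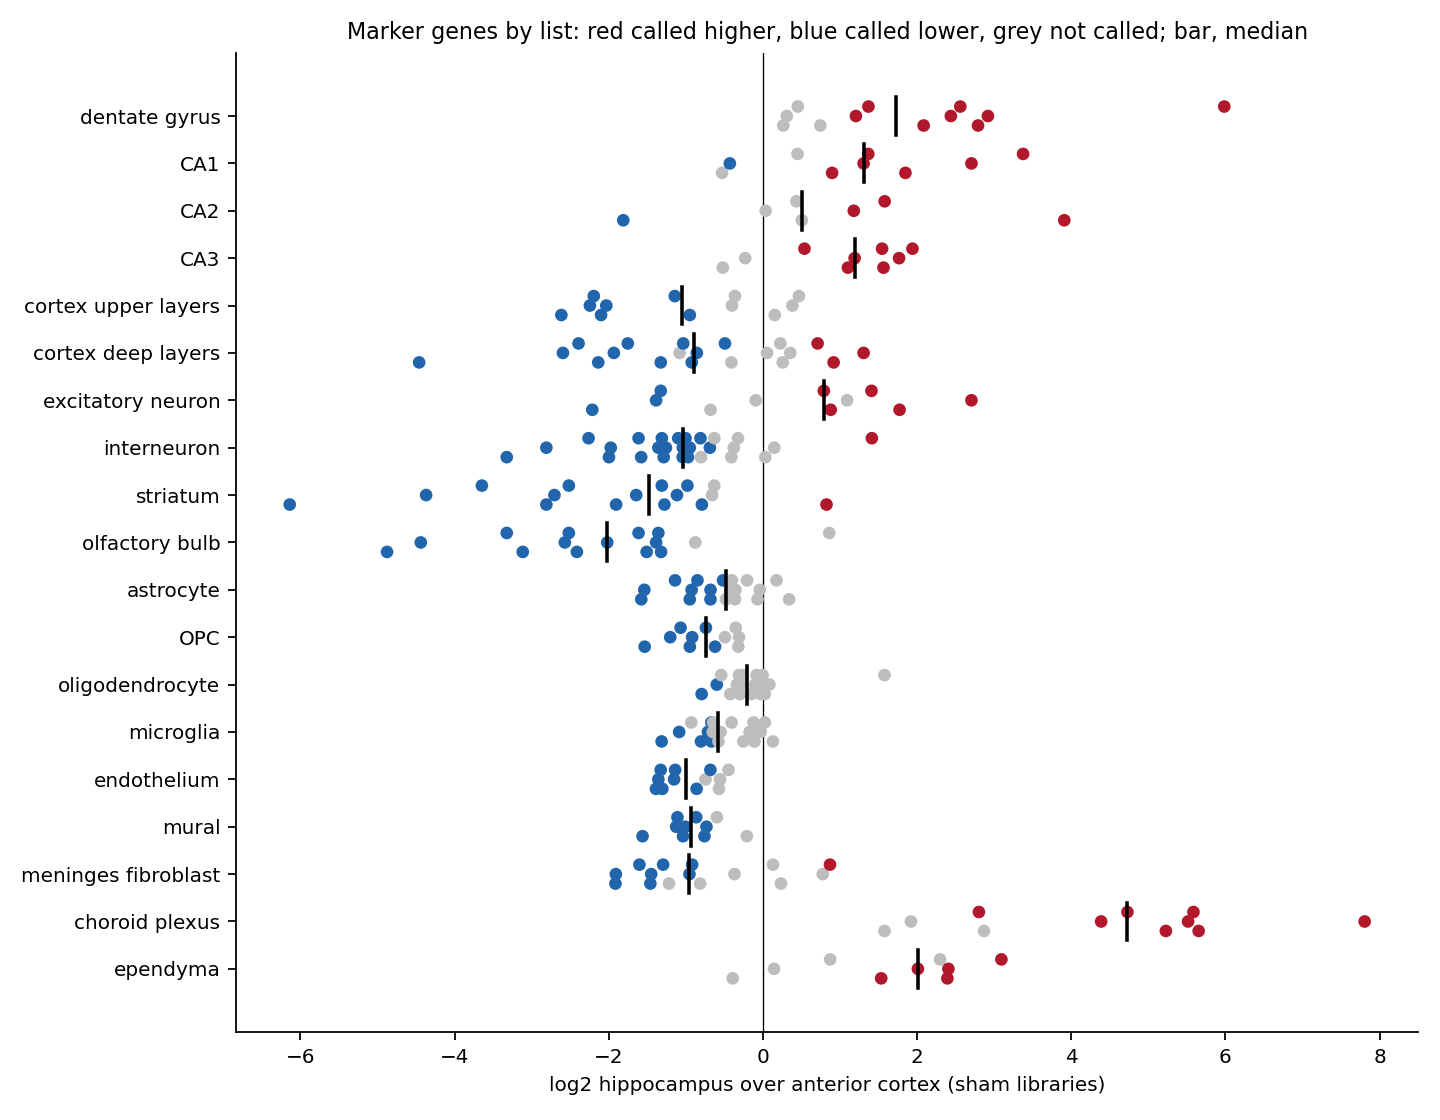
Log2 difference of each tested member of 19 marker lists; each point is a gene, red called higher in the hippocampus, blue lower and grey not called, and the black bar is the list's median. Medians run from -2.02 for olfactory bulb genes to 4.73 for choroid plexus genes.

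Ionotropic glutamate receptors differed subunit by subunit. Of 18 tested, 4 were called higher and 4 lower (median log2 difference -0.14). The AMPA receptor subunit Gria1 stood at 471, 433, 238, 557 and 547 CPM in the hippocampus and 167, 185, 114, 274 and 99.96 CPM in the anterior cortex. The Gria1 log2 difference was 1.42 ± 0.29 (adjusted p = 0.0034, edgeR). Gria2, the subunit that limits calcium entry, was also higher (746 to 928 against 484 to 605 CPM, log2 difference 0.64 ± 0.11, adjusted p = 0.0013), and the 2 other AMPA subunit genes were not called. The Gria1 groups overlapped through hippocampus library 14. Kainate subunits split, with Grik4 and Grik2 (0.65 ± 0.12) higher and Grik3 (5.96 to 25.2 against 33 to 69.2 CPM, log2 difference -1.46 ± 0.32, adjusted p = 0.0058) lower. Of the NMDA receptor subunits, Grin3a (1.94 to 5.8 against 7.77 to 21.8 CPM, log2 difference -2.10 ± 0.37, adjusted p = 0.0013) and Grin2c (-0.54 ± 0.15) were lower, and Grin1, the obligatory subunit, was not called (0.20 ± 0.16). With the gene length trend removed, Grin1 was called higher (0.43, adjusted p = 0.019) and Grin2c was no longer called (-0.34, adjusted p = 0.091). Without anterior cortex libraries 11, 13 and 15, 4 members were called higher and 0 lower, Grik3 (-1.13, adjusted p = 0.11), Grin3a (-1.33, adjusted p = 0.060) and Grin2c (-0.37, adjusted p = 0.21) among those no longer called.

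Auxiliary subunits of AMPA and kainate receptors, which set their trafficking and gating, split. Of 14 tested, 6 were called higher and 5 lower (median log2 difference -0.17). Cacng8, the AMPA receptor regulator TARP gamma-8, stood at 239, 256, 232, 257 and 291 CPM in the hippocampus and 71, 67.5, 83.8, 85.8 and 60.6 CPM in the anterior cortex. The Cacng8 log2 difference was 1.79 ± 0.13 (adjusted p = 1.7e-06). Cnih2, a cornichon protein, was at 396, 614, 544, 588 and 631 CPM in the hippocampus and 149, 177, 205, 124 and 256 CPM in the anterior cortex. The Cnih2 log2 difference was 1.61 ± 0.20 (adjusted p = 1.2e-04). Shisa6 was higher (13.1 to 62.7 against 3.14 to 5.92 CPM, log2 difference 3.39 ± 0.38, adjusted p = 5.7e-05). Shisa8 was lower (0.708 to 4.02 against 14.5 to 46.9 CPM, log2 difference -3.72 ± 0.45, adjusted p = 9.3e-05), as was Cacng4, TARP gamma-4 (51.8 to 69.1 against 105 to 140.3 CPM, log2 difference -0.97 ± 0.12, adjusted p = 9.9e-05). The groups of these 5 genes did not overlap. Of 8 metabotropic glutamate receptors, 3 were higher and 3 lower (median log2 difference 0.31). Grm4, a presynaptic receptor that the tables class as a processed transcript, stood at 5.52 to 10.1 against 25.3 to 40.4 CPM (log2 difference -2.15 ± 0.20, adjusted p = 1.3e-05). Grm8, also presynaptic, stood at 0.629 to 3.68 against 11.3 to 28.8 CPM (log2 difference -3.05 ± 0.43, adjusted p = 3.0e-04). Both were lower, while Grm7 (0.72 ± 0.19) and Grm6 (1.29 ± 0.27) were among those higher.

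GABA receptor subunits differed in both directions. Of 14 tested, 2 were called higher and 4 lower (median log2 difference -0.14). Gabra5, the extrasynaptic alpha-5 subunit, stood at 176, 168, 191, 189 and 194 CPM in the hippocampus and 38.3, 48.8, 56, 55.9 and 47.4 CPM in the anterior cortex (log2 difference 1.90 ± 0.12, adjusted p = 1.2e-06, edgeR), a narrow range on both sides. Gabra4 was also higher (134 to 177 against 75.7 to 109 CPM, log2 difference 0.72 ± 0.13, adjusted p = 0.0014). Gabra3 was lower at 24.3, 18.4, 20.7, 22 and 21.2 CPM in the hippocampus and 46.2, 66.3, 50.7, 74 and 45 CPM in the anterior cortex. The Gabra3 log2 difference was -1.40 ± 0.16 (adjusted p = 6.5e-05). Gabrg3 (-2.23 ± 0.39) and Gabrg1 (-0.82 ± 0.13) were lower. Both GABA-B receptor subunit genes were among the 8 not called.

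Receptors for monoamines and acetylcholine included some of the most regional genes. Of 10 serotonin receptors, 3 were called higher and 2 lower (median log2 difference -0.03). Htr1a, an inhibitory receptor, stood at 31.6, 28.8, 16.3, 33.6 and 36.1 CPM in the hippocampus and 3.26, 6.15, 3.89, 4.44 and 4.63 CPM in the anterior cortex. The Htr1a log2 difference was 2.71 ± 0.24 (adjusted p = 9.1e-06, edgeR). Htr2a, an excitatory one, was lower at 6.62, 7.02, 5.81, 3.89 and 4.88 CPM in the hippocampus and 28.3, 29.8, 31.2, 46 and 25.4 CPM in the anterior cortex. The Htr2a log2 difference was -2.51 ± 0.21 (adjusted p = 6.1e-06). Htr5b was close to absent in the anterior cortex, at 11.7, 18.9, 18.4, 17.7 and 21.2 CPM in the hippocampus and 0.0958, 0.831, 0.259, 0 and 1.16 CPM in the anterior cortex. The Htr5b log2 difference was 5.18 ± 0.54 (adjusted p = 3.0e-05). None of the 3 had overlapping groups. Of 11 adrenergic and dopamine receptors, 1 was higher and 8 lower (median log2 difference -0.76). The one higher was Adra1d at 113, 103, 102, 123 and 136 CPM in the hippocampus and 29.8, 35.2, 38.3, 35.8 and 29.9 CPM in the anterior cortex. The Adra1d log2 difference was 1.77 ± 0.12 (adjusted p = 1.7e-06). Its relative Adra1b (0.944 to 3.36 against 9.49 to 16.6 CPM, log2 difference -2.81 ± 0.34, adjusted p = 1.0e-04) was lower. Of 11 acetylcholine receptors, 4 were higher and 4 lower (median log2 difference -0.28). The nicotinic subunit Chrna7 stood at 28.1 to 47.5 against 12.3 to 20.1 CPM (log2 difference 1.34 ± 0.19, adjusted p = 3.0e-04). Chrna4, a subunit of high-affinity nicotine sites, stood at 6.02 to 10.5 against 33.7 to 74.7 CPM (log2 difference -2.54 ± 0.25, adjusted p = 1.8e-05). Among muscarinic receptors Chrm1 was higher (0.83 ± 0.16) and Chrm2 lower (0.393 to 3.19 against 6.32 to 13.7 CPM, log2 difference -2.31 ± 0.42, adjusted p = 0.0018).

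Of 17 neuropeptide genes, 4 were called higher and 6 lower (median log2 difference -0.32), and of 25 neuropeptide receptors 3 and 11 (median log2 difference -0.89). Nts, neurotensin, stood at 5.98, 11.8, 18.8, 11.1 and 13.4 CPM in the hippocampus and 0.575, 0.332, 1.3, 1.11 and 1.32 CPM in the anterior cortex. The Nts log2 difference was 3.69 ± 0.40 (adjusted p = 3.9e-05, edgeR). Cartpt, the CART precursor, was lower at 1.37 to 5.25 against 6.42 to 12.9 CPM (log2 difference -1.85 ± 0.37, adjusted p = 0.0033). Among receptors, Npy2r, the neuropeptide Y receptor Y2, stood at 12.9, 11.1, 8.1, 8.92 and 11.5 CPM in the hippocampus and 0.575, 0.748, 0.583, 0.185 and 0.661 CPM in the anterior cortex. The Npy2r log2 difference was 4.22 ± 0.31 (adjusted p = 1.9e-06). Crhr1, a receptor for corticotropin-releasing hormone, was lower at 2.75, 2.82, 3.82, 1.7 and 1.97 CPM in the hippocampus and 15, 14.8, 14.1, 13.8 and 12.5 CPM in the anterior cortex. The Crhr1 log2 difference was -2.41 ± 0.23 (adjusted p = 1.3e-05). The groups of these 4 genes did not overlap. Tacr3, the neurokinin B receptor (-2.81 ± 0.31), and Cckbr, the gastrin and cholecystokinin receptor (-1.82 ± 0.27), were lower, and the somatostatin receptors split, with Sstr3 (1.01 ± 0.16) and Sstr4 (1.41 ± 0.30) higher and Sstr1 lower (-0.89 ± 0.20).

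Growth factor genes differed in both directions. Of 18 neurotrophin and growth factor genes, 5 were called higher and 6 lower (median log2 difference -0.50). Bdnf, brain-derived neurotrophic factor, stood at 46.1, 41.6, 52.1, 38 and 52.8 CPM in the hippocampus and 12.5, 7.98, 10.8, 12 and 6.36 CPM in the anterior cortex. The Bdnf log2 difference was 2.22 ± 0.20 (adjusted p = 8.1e-06, edgeR). Its receptor Ntrk2 was lower at 420.4 to 653 against 777 to 1341 CPM (log2 difference -0.93 ± 0.17, adjusted p = 0.0014). Gfra2, the co-receptor of neurturin, was lower at 4.84, 5.24, 8.56, 6.87 and 4.48 CPM in the hippocampus and 44, 35.4, 44.6, 44.7 and 37.3 CPM in the anterior cortex. The Gfra2 log2 difference was -2.77 ± 0.19 (adjusted p = 1.7e-06). Of 15 steroid-response genes, 3 were called higher and 1 lower (median log2 difference 0.01), 26.7% against 29.0% called over all genes, a share near that background. Nr3c2, the mineralocorticoid receptor, stood at 84.6, 75.9, 34.3, 86.5 and 86.3 CPM in the hippocampus and 28.9, 25.5, 18.2, 39.9 and 23.2 CPM in the anterior cortex (log2 difference 1.44 ± 0.26, adjusted p = 0.0018), with hippocampus library 14 below the highest of the anterior cortex, so the groups overlapped. Fkbp5, a glucocorticoid-induced chaperone, stood at 70.5, 76.9, 81.7, 84.3 and 96.4 CPM in the hippocampus and 33.5, 37.1, 34.9, 35.3 and 36.8 CPM in the anterior cortex (log2 difference 1.21 ± 0.11, adjusted p = 9.9e-06) and did not overlap. Sgk1, a kinase also induced by these steroids, was higher (0.58 ± 0.17), though not without hippocampus library 15 (0.47, adjusted p = 0.0502) or anterior cortex library 13 (0.51, adjusted p = 0.055). Dusp1, a phosphatase induced by them, was lower (-0.83 ± 0.24), though not called without anterior cortex libraries 14 and 33 (-0.63, adjusted p = 0.067), and Nr3c1 is not in both tables.

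Ion channels differed in both directions. Of 45 potassium channel genes, 10 were called higher and 18 lower (median log2 difference -0.30), in all 28 of 45 against 29.0% over all genes. After Kcnf1, the smallest p was that of Kcng2, another silent subunit, at 73.1, 74.5, 84.2, 77.2 and 87.8 CPM in the hippocampus and 15.8, 19.9, 14.3, 10.4 and 15.3 CPM in the anterior cortex. The Kcng2 log2 difference was 2.39 ± 0.16 (adjusted p = 1.3e-06, edgeR). Kcnt1, a sodium-activated channel, was lower at 39.3, 40.8, 45.8, 38.2 and 34 CPM in the hippocampus and 125, 156, 179, 124 and 143 CPM in the anterior cortex. The Kcnt1 log2 difference was -1.87 ± 0.13 (adjusted p = 1.8e-06). Kcnh5, of the ether-a-go-go family, was lower (0.727 to 2.99 against 11.7 to 42.4 CPM, log2 difference -4.16 ± 0.45, adjusted p = 4.3e-05). Kcnt2, the relative of Kcnt1, was higher (52 to 58.1 against 19.6 to 31.9 CPM, log2 difference 1.19 ± 0.14, adjusted p = 7.5e-05). Kcnab1, a beta subunit, was higher (127 to 166 against 37.6 to 81.7 CPM, log2 difference 1.41 ± 0.18, adjusted p = 1.5e-04). Of 32 sodium, calcium, HCN and TRPC channel genes, 7 were called higher and 10 lower (median log2 difference 0.03). Scn3b, a sodium channel beta subunit, stood at 639, 773, 582, 793 and 838 CPM in the hippocampus and 115, 147, 172, 185 and 124 CPM in the anterior cortex. The Scn3b log2 difference was 2.29 ± 0.17 (adjusted p = 1.8e-06). Hcn4, a pacemaker channel, was lower at 2.02, 1.44, 1.53, 2.34 and 1.26 CPM in the hippocampus and 13.6, 14.1, 14.1, 13.4 and 9.75 CPM in the anterior cortex. The Hcn4 log2 difference was -2.92 ± 0.23 (adjusted p = 2.9e-06). The T-type calcium channels split, Cacna1g lower (-0.96 ± 0.10) and Cacna1h higher (1.11 ± 0.16), and so did the alpha-2-delta subunits, Cacna2d2 lower (-1.37 ± 0.12) and Cacna2d3 higher (0.98 ± 0.12). Hippocampus library 14 had the lowest mean level of both lists among the hippocampus libraries.

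**Figure D4:**
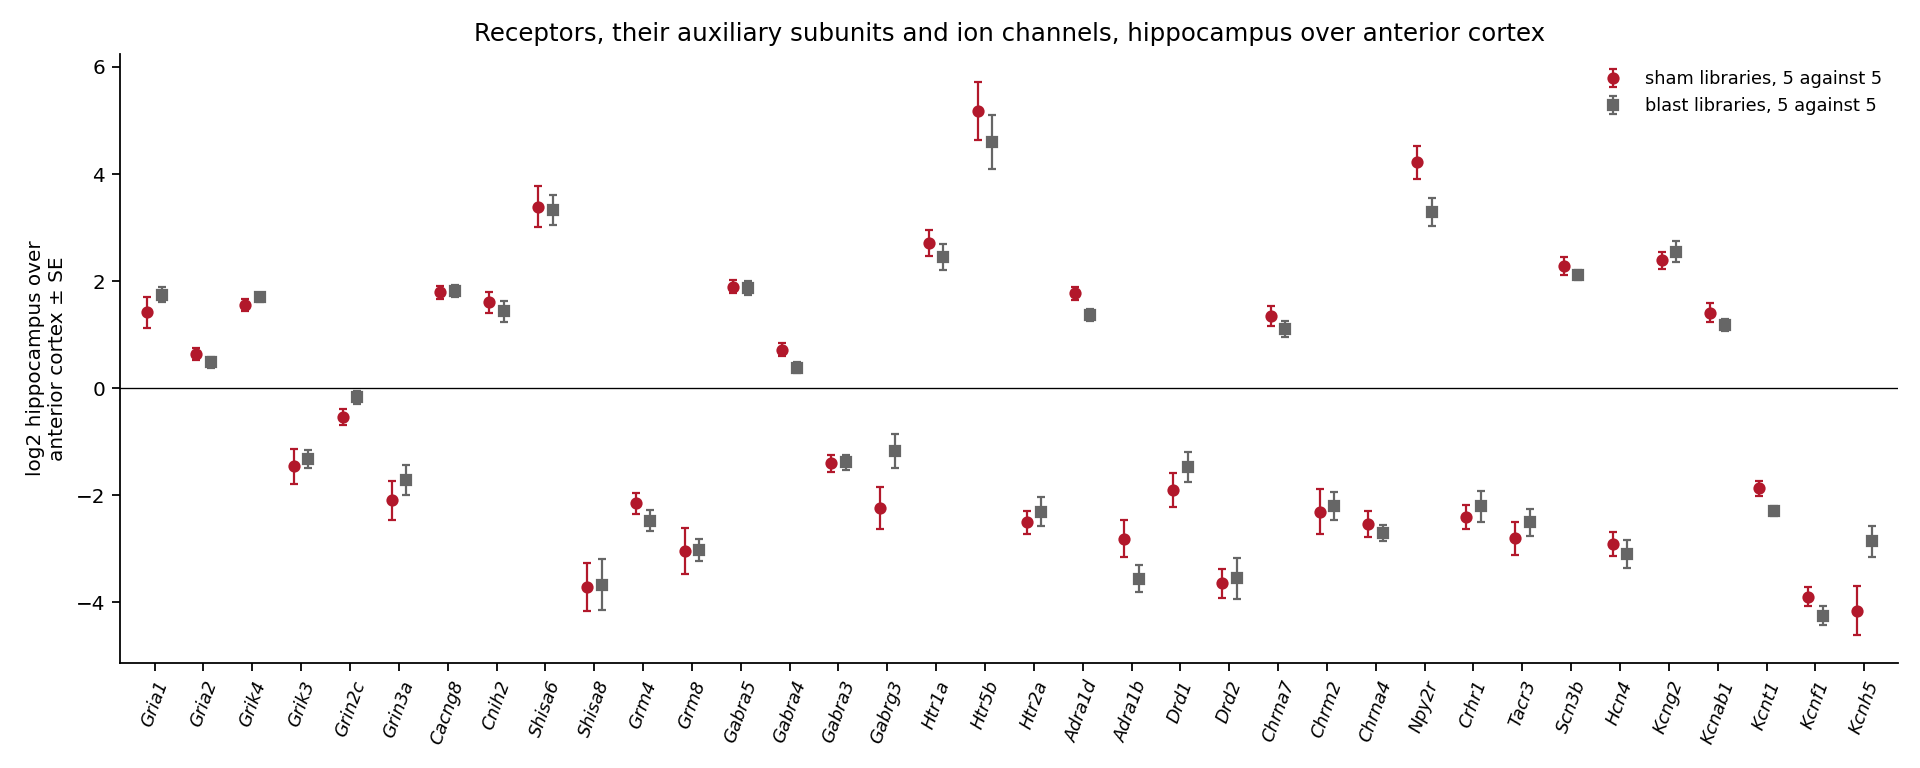
Log2 difference with its SE for 36 receptor, auxiliary subunit and channel genes, in the 10 sham libraries (red circles) and in the 10 blast libraries (grey squares), which share no library. All 36 lie on the same side of 0 in both. They were picked among genes called in sham, of which 99.0% of all those tested in blast had the same sign there.

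Of 35 genes of calcium binding and calcium signalling, 11 were called higher and 8 lower (median log2 difference 0.04). Next to Cabp7, Hpca, the calcium sensor hippocalcin, stood at 451, 583, 555, 545 and 505 CPM in the hippocampus and 66.3, 77.6, 129, 74.9 and 89.1 CPM in the anterior cortex. The Hpca log2 difference was 2.59 ± 0.18 (adjusted p = 1.7e-06, edgeR). Plcb4, a phospholipase C, was lower at 10.1 to 16.6 against 54.3 to 70.8 CPM (log2 difference -2.20 ± 0.15, adjusted p = 1.7e-06). Itpka, an inositol trisphosphate kinase of dendritic spines, was higher (143 to 216 against 55 to 89.5 CPM, log2 difference 1.41 ± 0.16, adjusted p = 4.7e-05). Camk2b, the beta chain of CaM kinase II, was higher (1.10 ± 0.14).

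Molecules of tissue patterning and wiring also told the regions apart. Of 45 genes of the Eph, semaphorin, Slit and netrin families, 17 were called higher and 14 lower (median log2 difference 0.30). Epha7, an ephrin receptor, stood at 126, 136, 105, 159.8 and 167 CPM in the hippocampus and 29.8, 27.5, 30.4, 50.3 and 23.3 CPM in the anterior cortex. The Epha7 log2 difference was 2.10 ± 0.21 (adjusted p = 2.0e-05, edgeR). Its relative Epha8 stood at 40.04 to 154 against 8.6 to 11.8 CPM (log2 difference 3.42 ± 0.31, adjusted p = 9.1e-06). Nrp1, a semaphorin co-receptor, stood at 88.7 to 146 against 28.8 to 44.3 CPM (log2 difference 1.80 ± 0.17, adjusted p = 1.3e-05). The ligand Efnb2 was lower at 17.4, 17.1, 20.8, 15.4 and 17 CPM in the hippocampus and 60.1, 57.8, 57.6, 84.4 and 52.5 CPM in the anterior cortex. The Efnb2 log2 difference was -1.83 ± 0.15 (adjusted p = 4.8e-06). Plxnd1, a semaphorin receptor, was lower too (31.7 to 42.6 against 88.1 to 131 CPM, log2 difference -1.62 ± 0.14, adjusted p = 6.5e-06), as was Sema3a, while Efnb3 was higher (1.33 ± 0.13). Of 25 cadherins, 6 were called higher and 11 lower (median log2 difference -0.52), among them Cdh9 at 64.5, 45.7, 49.8, 43 and 56.6 CPM in the hippocampus and 9.49, 13.4, 13.3, 11.7 and 6.53 CPM in the anterior cortex. The Cdh9 log2 difference was 2.25 ± 0.20 (adjusted p = 9.5e-06). Cdh1 (-3.15 ± 0.34), Cdh4 (-2.48 ± 0.28) and Cdh22 (-1.75 ± 0.21) were lower. Of 32 Wnt and BMP pathway genes, 8 were called higher and 11 lower (median log2 difference -0.32). Besides Wnt4, Rspo2, a secreted amplifier of Wnt signals, was higher at 78.1, 79.5, 74.2, 88.1 and 89.2 CPM in the hippocampus and 4.98, 12.9, 15.7, 37.1 and 10.3 CPM in the anterior cortex. The Rspo2 log2 difference was 2.34 ± 0.39 (adjusted p = 0.001). Its receptor Lgr5 was lower, as was Wnt9b (0.315 to 0.764 against 2.79 to 9.77 CPM, log2 difference -3.20 ± 0.41, adjusted p = 1.5e-04). Of 12 genes of perineuronal nets, 1 was higher and 5 lower (median log2 difference -0.35). The one higher was Hapln4, a link protein, at 477, 498, 424, 478 and 526 CPM in the hippocampus and 108, 122, 161, 97.8 and 118 CPM in the anterior cortex. The Hapln4 log2 difference was 1.99 ± 0.14 (adjusted p = 1.8e-06).

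Of 26 immediate early genes, 6 were called higher and 5 lower (median log2 difference -0.25). Jun stood at 126, 137, 141, 123 and 128 CPM in the hippocampus and 62, 68.3, 70.5, 75.1 and 65.8 CPM in the anterior cortex. The Jun log2 difference was 0.94 ± 0.10 (adjusted p = 2.9e-05, edgeR). The orphan receptor Nr4a3 was higher (47.1 to 74.3 against 12.6 to 33.1 CPM, log2 difference 1.33 ± 0.23, adjusted p = 0.0011). Egr1 was lower (57.1 to 84.4 against 70.2 to 137 CPM, log2 difference -0.65 ± 0.18, adjusted p = 0.017; adjusted p = 0.23 without anterior cortex libraries 11, 13 and 15), and Fos was not called (-1.10 ± 0.39, adjusted p = 0.051). Fos was called lower without hippocampus library 14 (-1.31, adjusted p = 0.036), anterior cortex library 15 (-1.24, adjusted p = 0.037) or anterior cortex library 33 (-1.28, adjusted p = 0.026). Without anterior cortex libraries 11, 13 and 15, 6 were called higher and 1 lower. Of 15 genes of immature neurons and cycling cells, 2 were called higher and 6 lower (median log2 difference -0.49). Neurod1 was higher, and Dcx, the microtubule protein doublecortin of immature neurons, was lower at 22.3, 22.8, 14.4, 21.6 and 19.3 CPM in the hippocampus and 102, 138, 64.1, 83.3 and 87 CPM in the anterior cortex (log2 difference -2.24 ± 0.21, adjusted p = 1.1e-05), as was Top2a (-1.86 ± 0.35). Mki67 was the second member called higher (7.13 to 13.2 against 3.76 to 7.86 CPM, log2 difference 1.04 ± 0.26, adjusted p = 0.011).

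Few genes of protein synthesis and of the nuclear part of the respiratory chain were called. Of 66 cytosolic ribosomal protein genes, 0 were higher and 1 lower, Rps19 (-2.40 ± 0.39, 13.5 to 31.8 against 56.2 to 202 CPM), a family with many near-identical copies (median log2 difference -0.06). Of 40 nuclear genes of the respiratory chain, 4 were higher and 0 lower (median log2 difference 0.33), Ndufa4 (0.93 ± 0.31), Sdhd (0.74 ± 0.23), Ndufb10 (0.59 ± 0.18) and Atp5f1c (0.43 ± 0.14), with adjusted p between 0.03 and 0.041. Each of these 4 calls was lost without hippocampus library 14, and without any 1 of anterior cortex libraries 11, 13 and 15 (adjusted p from 0.058 to 0.10). Leaving out hippocampus library 13 also ended the calls of Ndufa4, Sdhd and Atp5f1c, library 33 those of Ndufa4 and Atp5f1c, library 11 that of Ndufa4, and library 15 or anterior cortex library 33 that of Atp5f1c (adjusted p from 0.051 to 0.065). Without anterior cortex libraries 14 and 33 the median was 0.62 and 22 were called higher, and without anterior cortex libraries 11, 13 and 15 it was 0.06 and 0 were called. Of the 13 protein genes of the mitochondrial genome, 0 were higher and 9 lower (median log2 difference -0.76), with Mt-nd5 at 5245, 4974, 3100.3, 5034 and 7220.4 CPM in the hippocampus and 14782, 14364, 6002, 12437 and 11006 CPM in the anterior cortex (log2 difference -1.20 ± 0.26, adjusted p = 0.0051; -0.72 with adjusted p = 0.17 without anterior cortex libraries 11, 13 and 15). They summed to 72130.0 to 102300.0 CPM in the hippocampus and 88500.0 to 193500.0 in the anterior cortex.

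The same regions were compared in the 5 hippocampus and 5 anterior cortex libraries of blast-exposed rats, which share no library with the sham comparison. Of 15126 genes tested, 4051 (26.8%) were called, 1982 higher and 2069 lower. Of these blast libraries, anterior cortex library 8 held counts for the fewest genes (16577), and anterior cortex library 22 held the most counts (37128383). Without anterior cortex library 8, 5545 genes were called. Of 4307 genes called in sham and tested in blast, 4262 (99.0%) had the same sign there, against 7558 (72.2%) of the 10461 not called in sham. In both comparisons 2810 genes were called in the same direction, 65.2% of the sham calls and 70.7% of the 3977 blast calls tested in sham, and 0 in opposite directions. All 30 leading genes were called in blast in the same direction: Cabp7 differed by 3.83 ± 0.12 there, C1ql2 by 5.74 ± 0.34 and Cdhr1 by -4.82 ± 0.36. List medians in blast were 1.56 for the dentate gyrus, 0.74 for CA1, 0.997 for CA3, -1.09 for upper layers, -1.02 for interneurons, -1.53 for striatum, -0.77 for endothelium and 7.24 for choroid plexus. Within this group the medians of CA1 (1.31 in sham) and choroid plexus (4.73 in sham) were not close to those in blast. Some other lists differed too. Genes of meningeal fibroblasts had a median of -0.95 in sham and -0.35 in blast, with 8 and 1 called lower, and those of oligodendrocyte precursors -0.74 and -0.35. Neuropeptide genes had a median of -0.32 in sham and -1.19 in blast, and acetylcholine receptors -0.28 and 0.20. These sham medians also moved with the libraries left out. For neuropeptides it was -0.78 without anterior cortex libraries 11, 13 and 15 and 0.093 without anterior cortex libraries 14 and 33. For acetylcholine receptors it was 0.35 and -0.53 in the same settings. The differences between sham and blast medians were not tested.

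Whether the regional difference itself changed with blast was tested as the region by treatment interaction. Of 15672 genes tested, 0 (0.0%) were called by edgeR, with 849 at an unadjusted p under 0.05, 0 by limma voom and 1 by DESeq2. The smallest adjusted p was 0.66, that of Igbp1b, whose log2 difference between regions was 3.48 in sham and -0.083 in blast. Next on that side came Map3k7, a kinase of inflammatory signalling, with 1.56 in sham and -2.45 in blast, and Wdr92 with 1.40 and 0.012. On the other side stood Fign, with -2.92 in sham and -1.345 in blast, Tle3 with -0.79 and -0.27, and Map2k7 with -0.42 and 0.085. None of these 6 passed the correction, and a p above the threshold does not show that the regional differences were equal.

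**Figure D5:**
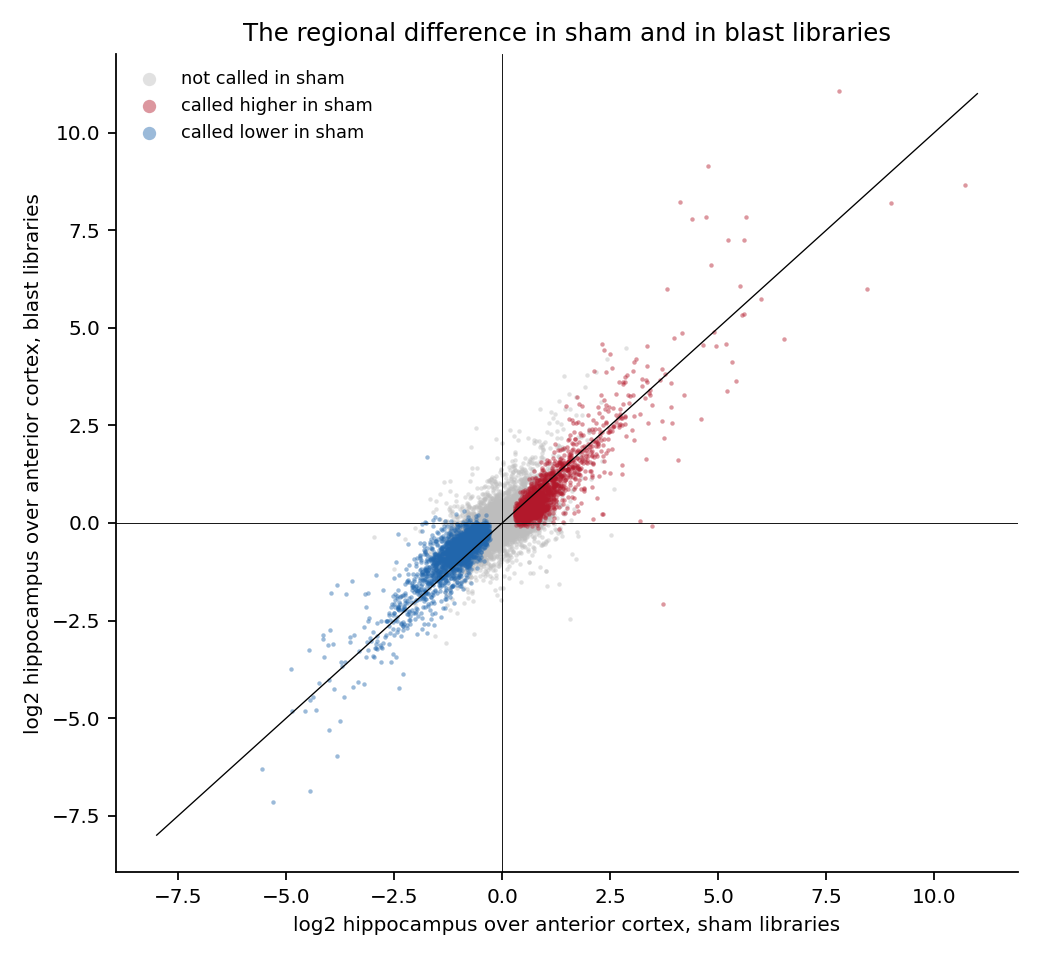
Log2 difference between hippocampus and anterior cortex of each of the 14768 genes tested in both, in the sham libraries (horizontal) and in the blast libraries (vertical), coloured by the call in sham; the diagonal marks equal values. Of the genes called in sham, 4262 of 4307 have the same sign in blast.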

How the data were processed

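RNA of 40 rat brain samples was purified with Qiazol and an RNeasy kit and made into libraries with an NEBNext Ultra RNA kit, per the labels' protocols. The authors deposited 1 table per region with a raw read count per gene and library. The submitters' processing notes name CASAVA, and the aligner, counter, annotation, build and strand setting were not given in the sources used here. The columns of normalized values and of the authors' comparisons in the same tables were not used.

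The hippocampus and anterior cortex tables were joined by gene identifier. The 10 sham libraries were fitted with edgeR 4.0.16 (TMM scaling, filterByExpr, quasi-likelihood test, Benjamini-Hochberg adjustment), and glmTreat tested for differences beyond 1.5-fold. CPM are counts scaled to the TMM library size. DESeq2 1.42.0 and limma 3.58.1 voom were alternatives, beside other scaling and filters, libraries left out, a replicate block, a gene length offset and a fit of the 20 sham libraries of 4 regions. The fits were tested on simulated data with a smaller variation between libraries than here, equal for all genes, and with no library that stood apart. Common variation between libraries (biological coefficient of variation) was 28.1%. The 10 libraries held 11268097 to 19156693 counts. No 2 libraries of a region agreed within sampling noise (chi-square per degree of freedom of 14.26 or more).

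Same-numbered libraries of the 2 regions had correlated deviations from their region's mean for some numbers only, and the numbers were not used as pairs. The members and the 45 gene lists were chosen with earlier results of these data known, and a further list, of the olfactory bulb, after these. The genes named are the 15 with the smallest p in each direction, the 5 with the largest difference in each direction at a mean CPM of at least 5, members of the lists, and for the interaction the 3 with the smallest p in each direction, less some that are not reported here. Lists were described and not tested. Promoter sequences are those of RefSeq for GRCr8, matched by symbol.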

Additional observations from a re-analysis of the deposited data

Results flagged for a closer look

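In 5 libraries of a group, a library was taken to stand apart by its gap to the nearest of the others on a log scale. The gap had to exceed 0.71 of the group's range (Dixon's 95% critical value). On that scale Ttr in hippocampus library 11 was not flagged, though its CPM was far above the others. Of 214 groups of values examined, 11 held such a library, a share near the 1 in 20 that chance alone gives.

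Most of these were hippocampus library 14. Its mean log2 CPM was low for potassium channels (4.81), for sodium, calcium, HCN and TRPC channels (5.77) and for Eph, semaphorin and other guidance genes (4.68), and high for cytosolic ribosomal proteins (7.25) and the respiratory chain (7.18). In the same library Cpne4, a copine of CA3 neurons, stood at 215 CPM, and Zbtb20 at 13.7 CPM, Nr3c2, the mineralocorticoid receptor, at 34.3 CPM and Htr1a, a serotonin receptor, at 16.3 CPM, each below the other 4 hippocampus libraries. Without this library 1650 genes were called higher in the hippocampus and 2105 lower.

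In the anterior cortex, Bhlhe22, a transcription factor higher in the hippocampus, stood at 21.0 CPM in library 15, below the other 4. Klk8, the protease neuropsin, stood at 0.0648 CPM in library 14, which is 1 count, against 0 in the other 4.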

How the results depend on the processing

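Leaving out 1 of the 10 sham libraries at a time, the number of genes called ran from 3179 to 4991, and beyond 1.5-fold from 856 to 1261. In the blast libraries the same gave 3332 to 5545 genes, the highest without anterior cortex library 8, and for the interaction 0. The count moved by more than 1.5 times without anterior cortex libraries 11, 13 and 15 (2034 genes, and 607 beyond 1.5-fold), without these and hippocampus library 11 (1659 and 513), both with fewer samples, and in a fit of the 20 sham libraries of 4 regions (6846). Beyond 1.5-fold it also rose without anterior cortex libraries 14 and 33 (1912) and, an alternative chosen after seeing the data, without these and hippocampus library 14 (1904). The cause was not tested. DESeq2 called 1 gene in the interaction. The sham calls kept under a setting ran from 34.0% to 99.7% of the 4323, with all but at most 4 of those tested keeping their sign.

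Of 187 named genes called, 152 kept their call under all 22 alternatives and none changed sign. Without anterior cortex libraries 11, 13 and 15 the calls of Ermn, Fibcd1, Lhx2, Mobp, Mpped1, Sgk1 and Tac3 were lost (adjusted p from 0.145 to 0.323). With the gene length trend removed those of Mobp (adjusted p = 0.074) and Mpped1 (0.154) were lost, likewise without anterior cortex libraries 14 and 33 (0.062 and 0.053) and with no filter on low counts (both 0.058). Mobp was also lost without hippocampus library 14 and anterior cortex libraries 14 and 33 (0.090), and Alas2 with limma voom (0.056). Fos was called lower by DESeq2 (-1.11, adjusted p = 0.018), with DESeq2 size factors (-1.11, 0.049), with the length trend removed (-1.28, 0.022), in the fit of 4 regions (-1.10, 0.044), without anterior cortex libraries 14 and 33 (-1.23, 0.037) and without these and hippocampus library 14 (-1.42, 0.020). Without hippocampus library 11 and anterior cortex libraries 11, 13 and 15 the calls of Aqp4, Chrm2, Drd1, Emx2, Gabrg1, Gabrg3, Gad2, Grik2, Dusp1, Ntrk2, Penk, Slc17a6 and Top2a were also lost (adjusted p from 0.053 to 0.085). The sign changed for 3 genes that were not called. Zbtb20 was at 0.52 without anterior cortex libraries 11, 13 and 15 and at 0.46 without these and hippocampus library 11. Pvalb was at -0.26 and -0.16 in the same settings, at -0.056 with the gene length trend removed, and from -0.13 (without hippocampus library 14) to 0.29 with 1 library left out. Sst was at -0.88 and -0.73 in those settings, at -0.11 with the length trend removed, and from -0.28 to 0.72 with 1 library left out, below 0 without hippocampus library 13 or 14 or anterior cortex library 11, 13 or 15.

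With the replicate number as a block (replicate block), 2821 genes were called higher and 2775 lower in sham, 1438 beyond 1.5-fold, 1708 higher and 1823 lower in blast, and 0 in the interaction. Same-numbered libraries correlated by 0.16 (11), 0.09 (13), 0.52 (14), 0.31 (15) and -0.20 (33), and every library but those numbered 33 correlated best with its own number, a hint from the data and not the design. Among the named genes the block called Fos (-1.08, adjusted p = 0.010) lower and lost the call of Fibcd1 (3.20, adjusted p = 0.066), and it changed no other call of a gene named here. Of 1012 list medians under the alternatives, 75 moved by more than the spread between libraries. Counts called lower moved in many lists without anterior cortex libraries 11, 13 and 15, with fewer samples. Potassium channels went from 18 to 10, Wnt and BMP pathway genes from 11 to 5, and interneuron genes from 19 to 14. Pallial factors went from 16 to 11 and deep-layer genes from 11 to 7. Neuropeptide receptors went from 11 to 6, and adrenergic and dopamine receptors from 8 to 5. Genes of oligodendrocyte precursors went from 7 to 4 and those of mural cells from 8 to 5. Meningeal fibroblast genes went from 8 to 4, perineuronal net genes from 5 to 1, and endothelial genes from 8 to 11. Depth limited Nhlh1, with no count in the anterior cortex, for which a bound is given, and Klk8, with 1 count there, for which a ratio with its counting interval is given.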
